A study of Mus musculus with 37 samples.

Results

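GABA-A receptor subunits were examined in the temporal lobe of Wfs1-deficient and wild-type mice. The subunits were 7 genes, namely Gabra2, Gabra3, Gabra4, Gabra5, Gabrb1, Gabrb2 and Gabrd, and every array probe set annotated to 1 of these symbols alone was taken. That gave 21 of the 34945 probe sets with a single symbol, or 7 of 18193 genes. Of the 21, 17 reached the signal needed for testing, and they covered all 7 genes. The other 4 probe sets (Gabra2 1449807_x_at and 1420299_at, Gabrb1 1443834_at and Gabrd 1457763_at) had group means of 1.94 to 2.73 on the log2 scale, below the limit of 3.60.

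Gene expression was measured on 37 Affymetrix mouse arrays in 4 groups. These were 10 knockouts (KO) of Wfs1 and 9 wild types (WT) in the strain that the labels call 129SV, and 9 KO and 9 WT in the strain they call C57. The series design writes the strains as 129S6 and C57B6, and they are called 129 and C57 here. Wfs1 encodes wolframin, a membrane protein of the endoplasmic reticulum. The sources used here give neither sex, age, litter, allele design nor Cre driver, nor whether arrays stand for separate animals, so the p-values measure the spread between samples. All signals below are log2 probe set values, and a difference of 1 is a 2-fold change. A probe set was called changed at a limma adjusted p under 0.05 over all 23321 probe sets tested.

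GABA-A receptors are chloride channels of 5 subunits that open when GABA binds, and they carry most fast inhibition in the forebrain. The GABA site lies between an alpha and a beta subunit, and the alpha subunit sets much of the sensitivity to benzodiazepines and the place of the receptor in the cell. Receptors with the delta subunit lie outside the synapse and give a lasting, tonic current.

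The 7 genes lie on 5 mouse chromosomes. Gabra2, Gabra4 and Gabrb1 stand in 1 cluster on chromosome 5, the chromosome that also carries Wfs1, with 108 protein-coding genes between Wfs1 and Gabrg1 at the edge of the cluster. Gabra3 is on the X chromosome, Gabra5 on 7, Gabrb2 on 11 and Gabrd on 4. RefSeq promoter sequences matched 6 of the 7 genes, with 10 windows of 250 bases before a transcript start. Windows of 1 gene can overlap each other. The 4 windows printed here include that of the second start of Gabrb1, the gene with the called difference. The window of its first start is not printed. The others are from the 2 alpha genes closest to a call, and from Gabra2 as a CpG-rich example from the chromosome 5 cluster. Coordinates are on GRCm38.p6, each sequence reads 5′ to 3′ on the strand of its gene, and capitals mark a match to a searched motif.
Gabrb1, second start, chr5:71699682-71699931, plus strand: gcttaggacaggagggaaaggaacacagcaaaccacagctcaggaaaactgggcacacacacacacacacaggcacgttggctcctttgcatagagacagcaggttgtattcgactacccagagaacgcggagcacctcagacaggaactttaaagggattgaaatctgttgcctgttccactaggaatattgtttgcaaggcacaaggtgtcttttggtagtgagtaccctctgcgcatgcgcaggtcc
Gabra5, chr7:57510060-57510309, minus strand: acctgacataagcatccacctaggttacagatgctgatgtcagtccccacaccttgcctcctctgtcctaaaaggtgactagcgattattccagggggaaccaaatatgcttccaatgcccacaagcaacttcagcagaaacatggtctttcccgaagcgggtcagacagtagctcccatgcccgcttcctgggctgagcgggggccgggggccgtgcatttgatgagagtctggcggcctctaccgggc
Gabra3, chrX:72656920-72657169, minus strand: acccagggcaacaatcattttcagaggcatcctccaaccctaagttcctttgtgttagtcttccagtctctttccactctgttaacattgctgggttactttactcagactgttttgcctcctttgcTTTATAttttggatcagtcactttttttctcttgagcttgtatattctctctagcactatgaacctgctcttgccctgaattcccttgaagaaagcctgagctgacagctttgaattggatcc
Gabra2, chr5:71095850-71096099, minus strand: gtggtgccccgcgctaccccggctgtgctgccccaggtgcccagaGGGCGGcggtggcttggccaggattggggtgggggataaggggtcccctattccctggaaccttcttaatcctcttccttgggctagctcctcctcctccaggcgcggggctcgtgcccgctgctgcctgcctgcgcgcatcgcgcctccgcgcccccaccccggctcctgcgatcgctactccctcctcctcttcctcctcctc

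The windows differed widely in base composition. The Gabra2 window was 70.0% G or C with 18 CpG dinucleotides, more than 78.33% of the 32851 promoter windows in the table. The printed Gabrb1 window was 50.8% G or C with 6 CpG, while that of the first Gabrb1 start was 64.4% with 18 CpG. The Gabra3 window was 42.4% G or C and held 0 CpG, where the median of all windows was 52.4% and 6 CpG. The motifs searched on both strands were the cAMP response element TGACGTCA, the E-box CACGTG, the GC box GGGCGG, the TATA box TATAAA and the Egr site GCGTGGGCG, which overlaps a GC box where a G follows it. They occurred in 1.55%, 6.02%, 32.7%, 12.4% and 0.536% of all windows in that order. The capitals in Gabra2 are a GC box and those in Gabra3 a TATA box read on the opposite strand. No searched motif was found in the Gabrb1 and Gabra5 windows printed, which says only that these letters are not there.

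Wfs1 itself matched the genotype labels on every array, at 2.64 to 3.59 in 129 KO against 9.11 to 9.52 in 129 WT, and at 2.75 to 3.60 in C57 KO against 9.16 to 9.73 in C57 WT. On the actin control, the 3′ signal exceeded the 5′ signal by 0.91 to 2.76, and this measure of RNA quality, called the actin difference below, peaked on 129 WT array 73. The arrays also fell into sets of 19 and 18 that were found from the data after group means were removed, using 40 probe sets with no subunit gene among them. In every group the first set holds the lower array numbers. These sets are not groups of the study, and what they stand for is not given. The tissue is a mixture of cells, so fewer cells of a type and less RNA per cell cannot be told apart.

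Of the 17 subunit probe sets, 1 differed between the strains in WT, and no other subunit difference passed the test. Between WT groups, 1 of 17 subunit probe sets was called, a Gabrb1 probe set that was lower in 129, where the background was 2.02% of all probe sets tested (1.18% called lower in 129). Between KO groups, which share no array with the WT groups, 0 of 17 were called against a background of 3.01%. The loss of Wfs1 gave 0 of 17 calls in 129 (background 0.00429%, which is Wfs1 itself) and 0 of 17 in C57 (background 0.0858%). The difference between the knockout effects of the strains, C57 minus 129, also gave 0 of 17 (background 0.0257%). At an unadjusted p under 0.05, limma counted 2 subunit probe sets between WT groups, 2 between KO groups, 0 for the knockout in 129, 3 for the knockout in C57 and 1 for the difference of effects. The backgrounds at that level were 11.4%, 12.2%, 2.19%, 5.63% and 3.24% in the same order. No other tool was run.

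The median difference over the 17 probe sets was close to 0 in each comparison. It was -0.01 for 129 minus C57 in WT and -0.01 in KO, where the medians of all probe sets were 0.01 and 0.00. For KO minus WT it was 0.04 in 129 and 0.00 in C57, where the medians of all probe sets were 0.00 and 0.01. The intervals show how much change these arrays leave room for. The 95% confidence interval lay wholly within 0.5 log2 units of 0, a 1.41-fold change, for 13 of 17 probe sets between WT groups and 15 of 17 between KO groups. It did so for 14 of 17 in each knockout comparison. The share over all probe sets tested was 92.2%, 93.1%, 96.4% (129) and 95.3% (C57) in that order.

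**Figure D1:**
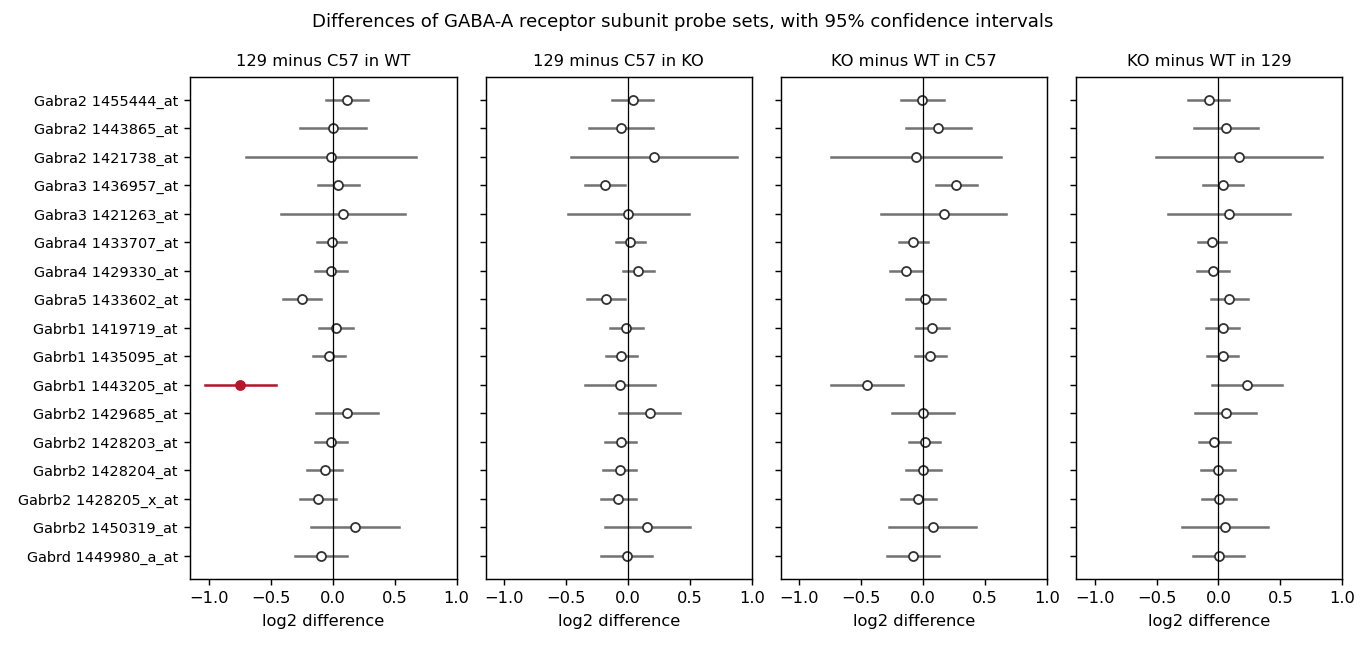
Log2 differences of the 17 tested subunit probe sets (points) with their 95% confidence intervals (lines), for 129 minus C57 in WT and in KO and for KO minus WT in C57 and in 129. The filled red point is the 1 called difference, Gabrb1 1443205_at between WT groups at -0.75; the widest intervals are those of Gabra2 1421738_at.

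Gabra2 encodes an alpha subunit that is frequent in the forebrain, among other places at the axon initial segment of pyramidal cells. Its brightest probe set, 1455444_at, had lowest, median and highest signals of 7.86, 8.40 and 8.60 in 129 KO and of 8.33, 8.39 and 8.66 in 129 WT. In C57 KO they were 8.04, 8.33 and 8.57, and in C57 WT 8.03, 8.33 and 8.52. The 4 groups overlapped. The difference 129 minus C57 in WT was 0.11 (95% interval -0.06 to 0.28), and KO minus WT was -0.08 (-0.25 to 0.09) in 129 and -0.01 (-0.18 to 0.16) in C57. Of the other tested Gabra2 probe sets, 1443865_at had group means of 7.33 to 7.45.

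The third tested Gabra2 probe set, 1421738_at, varied far more among arrays of the same group. Its residual SD of 0.76 was larger than that of 99.5% of the probe sets tested, whose median was 0.174. Signals ran from 5.76 to 7.65 in 129 KO, from 4.14 to 7.70 in 129 WT, from 5.49 to 7.23 in C57 KO and from 5.50 to 7.07 in C57 WT. The variation followed the array sets: the second set was higher by 1.11 in 129 KO, 1.65 in 129 WT, 0.89 in C57 KO and 1.08 in C57 WT, and in 3 of the 4 groups the sets did not overlap. For 1455444_at of the same gene, the same difference between the sets lay between -0.11 and -0.02 in the 4 groups. What 1421738_at measures beside 1455444_at was not tested.

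Gabra3 encodes an alpha subunit that is abundant early in life and later in selected neurons of the forebrain and the brainstem. For 1436957_at, the lowest, median and highest signals were 8.08, 8.51 and 8.61 in 129 KO and 8.17, 8.39 and 8.59 in 129 WT. They were 8.22, 8.60 and 8.86 in C57 KO and 8.15, 8.20 and 8.60 in C57 WT. In C57, 5 of 9 KO arrays were above all WT arrays, the lowest of them by little (array 9 at 8.598 against WT array 25 at 8.5974). The other KO arrays lay within the WT range, from 8.22 on array 17 to 8.57 on array 10. The mean was 8.60 ± 0.17 in C57 KO and 8.33 ± 0.19 in C57 WT (SD, n = 9 each), a difference of 0.27 (SE 0.08, interval 0.10 to 0.43). It was not called by limma (adjusted p = 0.471). In 129 the difference was 0.04 (interval -0.13 to 0.20), and the difference of the 2 effects, 0.23 (interval -0.0019 to 0.46), was not called either (adjusted p = 1.00).

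The signals of 1436957_at were not spread evenly within the groups, a feature chosen after its values were seen. In C57 WT, 6 arrays lay between 8.15 and 8.30 and the other 3 between 8.56 and 8.60. In C57 KO, 8 arrays lay between 8.54 and 8.86 and 1 at 8.22. In 129 KO, 4 arrays lay between 8.08 and 8.26 and 6 between 8.50 and 8.61, while the 129 WT arrays filled the range from 8.17 to 8.59 without such a gap. The other probe set, 1421263_at, was more variable, with a residual SD of 0.56 and signals of 4.51 to 6.09 in 129 KO, 3.81 to 6.07 in 129 WT, 4.23 to 5.83 in C57 KO and 4.31 to 5.87 in C57 WT. All groups overlapped on it. Between KO groups the difference 129 minus C57 on 1436957_at was -0.19 (interval -0.35 to -0.02, limma adjusted p = 0.286).

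Gabra4 encodes an alpha subunit that often pairs with delta in thalamus, dentate gyrus and striatum. Its probe set 1433707_at had group means of 8.82 ± 0.13 in 129 KO (SD, n = 10), 8.87 ± 0.06 in 129 WT, 8.80 ± 0.12 in C57 KO and 8.88 ± 0.14 in C57 WT (n = 9 each). The groups overlapped, and its residual SD of 0.12 was the lowest of the 17. The second probe set, 1429330_at, had lowest, median and highest signals of 8.07, 8.43 and 8.60 in C57 KO against 8.39, 8.54 and 8.78 in C57 WT, and 3 of 9 KO arrays lay below all WT arrays. The difference of -0.14 (SE 0.06, interval -0.27 to -0.01) was not called by limma (adjusted p = 0.831), and in 129 it was -0.04 (interval -0.17 to 0.08). Without C57 KO array 10, the array at 8.07, the difference in C57 was -0.10 (limma adjusted p = 0.946).

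Gabra5 encodes an alpha subunit of extrasynaptic receptors that is concentrated in the hippocampus, where it takes part in tonic inhibition. It had 1 probe set, 1433602_at. Lowest, median and highest signals were 7.19, 7.28 and 7.65 in 129 WT, against 7.33, 7.61 and 7.86 in C57 WT. They were 7.10, 7.46 and 7.80 in 129 KO, against 7.53, 7.64 and 7.77 in C57 KO. In WT, 5 of 9 arrays of 129 lay below every C57 array. In KO, 5 of 10 arrays of 129 lay below every C57 array and 1 above all of them.

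The strain difference of Gabra5 was -0.25 in WT (SE 0.08, interval -0.41 to -0.09, limma adjusted p = 0.0873) and -0.18 in KO (SE 0.08, interval -0.33 to -0.03, adjusted p = 0.267). Neither was called. In WT it was -0.16 within the first array set and -0.35 within the second, and in KO -0.24 within the first and -0.11 within the second, with no call in either set. The difference between WT groups was called when C57 WT array 25, C57 WT array 42 or 129 WT array 72 was left out, at -0.28, -0.28 and -0.29 with the lowest limma adjusted p at 0.0432. It had an adjusted p of 0.189 without C57 WT array 33. KO minus WT was 0.09 (interval -0.06 to 0.24) in 129 and 0.02 (interval -0.14 to 0.17) in C57.

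**Figure D2:**
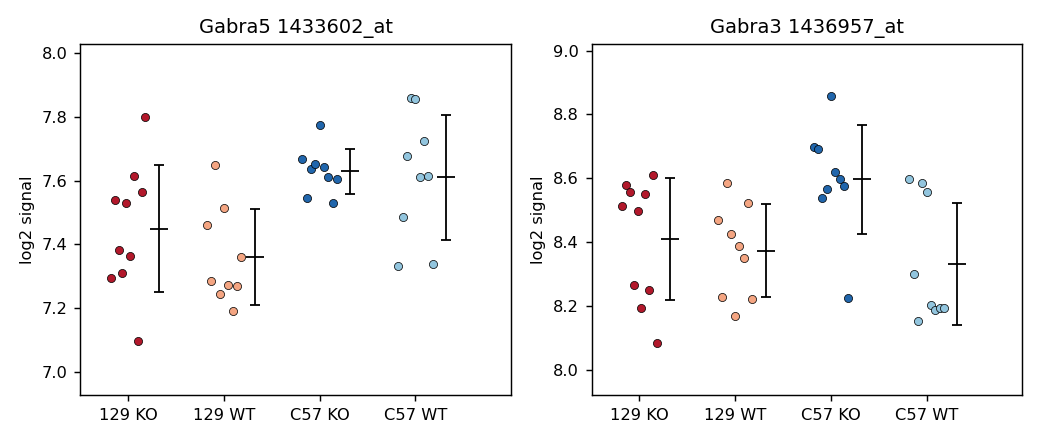
Log2 signals of Gabra5 1433602_at (left) and Gabra3 1436957_at (right), 1 point per array, with the mean and SD of each group beside it (n = 10 in 129 KO, 9 in each other group). The median Gabra5 signal is 7.46 in 129 KO and 7.28 in 129 WT against 7.64 in C57 KO and 7.61 in C57 WT. For Gabra3, 5 of 9 C57 KO arrays lie above all C57 WT arrays, a difference that was not called (limma adjusted p = 0.471).

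Gabrb1 encodes a beta subunit, part of the GABA binding site. One of its probe sets, 1443205_at, carried the called difference. Its lowest, median and highest signals were 6.75, 8.00 and 8.15 in 129 WT, against 8.36, 8.56 and 8.87 in C57 WT. All 9 of the 129 WT arrays lay below all 9 C57 WT arrays. The means were 7.85 ± 0.44 in 129 WT and 8.59 ± 0.17 in C57 WT (SD, n = 9 each). The difference was -0.75 (SE 0.14, interval -1.04 to -0.46), 1.68-fold lower in 129, at a limma adjusted p of 0.00166.

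The interval of the strain difference between KO groups did not reach the value seen in WT. Signals were 7.56, 8.13 and 8.40 in 129 KO, against 7.53, 8.10 and 8.80 in C57 KO, and the difference was -0.06 (interval -0.35 to 0.22, limma adjusted p = 0.946). Within C57, 7 of 9 KO arrays lay below all WT arrays, with a difference of -0.45 (SE 0.14, interval -0.74 to -0.16) that was not called (adjusted p = 0.497). Within 129, KO minus WT was 0.23 (interval -0.05 to 0.51), and 0.09 without 129 WT array 73. The difference of the knockout effects was -0.68 (SE 0.20, interval -1.09 to -0.28) at an unadjusted p of 0.00148 and a limma adjusted p of 1.00, so a difference between the strains in the response of Gabrb1 was not called. The strain difference in WT and KO minus WT in C57 share the C57 WT arrays, and the strain difference in WT and KO minus WT in 129 share the 129 WT arrays, so they are not separate evidence.

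The strain difference of 1443205_at was called in all 37 fits that left out 1 array, at -0.79 to -0.61. Array 73 of 129 WT had the lowest signal, 6.75, and the highest actin difference, and without it the strain difference was -0.61 (SE 0.12, limma adjusted p = 0.00172). With the actin difference as a covariate it was -0.66 (adjusted p = 0.000691), and with the array sets as a block -0.72 (adjusted p = 0.000682). Within the second set alone it was -0.53 (adjusted p = 0.0410) and within the first alone -0.91, which was not called (adjusted p = 0.0697).

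The intervals of the other tested Gabrb1 probe sets lay close to 0. For 1419719_at, the mean was 9.89 ± 0.09 in 129 WT and 9.86 ± 0.12 in C57 WT, a difference of 0.03 (interval -0.11 to 0.16). For 1435095_at, the mean was 9.16 ± 0.14 in 129 WT and 9.19 ± 0.05 in C57 WT, a difference of -0.03 (interval -0.16 to 0.10). Over the mean of these 2 probe sets, 129 minus C57 in KO was -0.03, KO minus WT was 0.03 in 129 and 0.07 in C57. Whether the probe sets differ from each other in these comparisons was not tested. The files hold no probe sequence, so the stretch of the Gabrb1 transcript behind each probe set was not analysed here.

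**Figure D3:**
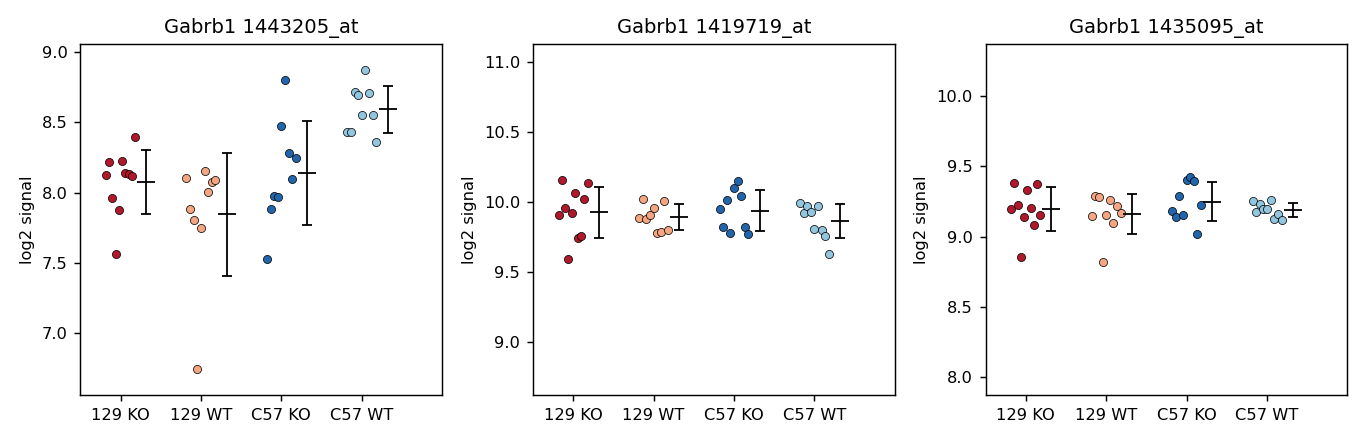
Log2 signals of the 3 tested Gabrb1 probe sets, 1 point per array and the same span of 2.5 log2 units in each panel, with the mean and SD of each group (n = 10 in 129 KO, 9 in each other group). On 1443205_at all 129 WT arrays (6.75 to 8.15) lie below all C57 WT arrays (8.36 to 8.87), while on 1419719_at and 1435095_at the groups overlap.

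Gabrb2 encodes the beta subunit of the most common synaptic receptors. It had 5 tested probe sets, none of which was called in any comparison. The brightest, 1429685_at, had lowest, median and highest signals of 9.68, 10.07 and 10.30 in 129 KO and 9.14, 10.09 and 10.25 in 129 WT. In C57 KO they were 9.00, 9.96 and 10.13, and in C57 WT 9.55, 9.94 and 10.14. The groups overlapped, and single low arrays, 129 WT array 73 and C57 KO array 10, stood apart. The difference 129 minus C57 was 0.11 (interval -0.14 to 0.36) in WT and 0.18 (interval -0.07 to 0.42) in KO. Without 129 WT array 73 the value in WT was 0.22 (limma adjusted p = 0.445), and without C57 KO array 10 the value in KO was 0.07 (limma adjusted p = 0.918). On the other 4 probe sets the strain differences lay between -0.12 and 0.18 in WT and between -0.08 and 0.16 in KO. KO minus WT lay between -0.04 and 0.06 over the 5 in 129, and between -0.04 and 0.08 in C57.

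Gabrd encodes the delta subunit of extrasynaptic receptors. On 1449980_a_at the lowest, median and highest signals were 7.11, 7.37 and 7.86 in 129 KO, 7.08, 7.49 and 7.60 in 129 WT, 7.11, 7.34 and 7.88 in C57 KO and 7.27, 7.53 and 7.79 in C57 WT. All groups overlapped. The difference 129 minus C57 was -0.10 (interval -0.31 to 0.12) in WT and -0.01 (interval -0.22 to 0.20) in KO. KO minus WT was 0.00 (interval -0.20 to 0.21) in 129 and -0.08 (interval -0.29 to 0.13) in C57. The second Gabrd probe set, 1457763_at, lay below the limit for testing, with means of 2.73 in 129 WT and 2.53 in C57 WT, and in a fit without that limit its difference of 0.20 was not called (limma adjusted p = 0.349).

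Signals of the subunits were also compared among arrays of the same group. After group means were removed, 21 pairs of genes were compared over 37 arrays, each gene by its brightest probe set, and 4 passed a permutation test of Pearson's r with Benjamini-Hochberg adjustment. The lowest of the 4 had an absolute r of 0.41, a size reached by 14.3% of all 85510503 pairs of tested genes and by 19% of the 21 pairs. The count is thus near the background, and the pairs below are a description. Gabra2 and Gabrd moved in opposite directions (r = -0.63, permutation adjusted p = 0.00284; Spearman's rho = -0.59, permutation adjusted p = 0.0120). The value was -0.52 without the 2 arrays farthest from the median of Gabra2, and -0.66 and -0.67 within the 2 array sets. Gabra4 and Gabrb2 moved together (r = 0.55, permutation adjusted p = 0.00284; rho = 0.46, adjusted p = 0.0337), with 0.48 without the farthest arrays and 0.41 and 0.50 within the sets. Gabra2 also passed with Gabra3 (r = 0.47, permutation adjusted p = 0.0344) and with Gabrb2 (r = 0.41, permutation adjusted p = 0.0344). Both missed the threshold by rho (0.33 with adjusted p = 0.132, and 0.34 with adjusted p = 0.131), and they were 0.37 and 0.35 without the farthest arrays. Gabra4 and Gabrb1, which are neighbours on chromosome 5, had r = 0.29 (permutation adjusted p = 0.204). Within the first and second array set their r had opposite signs, at -0.28 and 0.62.

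Probe sets of the same gene varied together to unequal degrees. Of 10 pairings with the brightest probe set of a gene, 6 were called, with r over all pairings from 0.09 to 0.76. The share of such pairings called over all genes is not given here, so the count is a description. The highest was Gabrb2 1429685_at with 1428203_at (r = 0.76, permutation adjusted p = 0.0002, and rho = 0.49, adjusted p = 0.00780). Its r was 0.60 without the 2 farthest arrays, and 0.57 and 0.83 within the first and second array set. The lowest was Gabra2 1455444_at with 1421738_at (r = 0.09, permutation adjusted p = 0.558, and rho = 0.10, adjusted p = 0.694). Within the first and second array set its r was higher, at 0.28 and 0.56.

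The relation to the actin difference was common over the whole array and uneven among the subunit probe sets. With permutation p-values adjusted over all probe sets tested, 7 of 17 subunit probe sets were called, against a background of 31% of all probe sets, and all 7 were negative, as were 17.1% of all probe sets. At an unadjusted permutation p under 0.05 it was 10 of 17, against a background of 41.8%, and all 10 were negative, as were 21.3% of all probe sets. The subunits' share lay above the background, more so for negative relations alone. Whether it differs from the background was not tested. The strongest relation was that of Gabra3 1421263_at (r = -0.87, permutation adjusted p = 0.000187; rho = -0.82, permutation p = 1e-05), which was -0.83 without the 2 arrays farthest from the median actin difference. The other Gabra3 probe set, 1436957_at, had r = -0.04 (permutation adjusted p = 0.881; rho = -0.15, permutation p = 0.391).

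Gabra2 had r = -0.69 on 1421738_at (permutation adjusted p = 0.000607; rho = -0.63, permutation p = 0.00012; -0.57 without the farthest arrays). It also had r = -0.69 on 1443865_at (permutation adjusted p = 0.00364; rho = -0.56, permutation p = 0.0011; -0.42 without them), but r = -0.02 on 1455444_at (permutation adjusted p = 0.937; rho = -0.01, permutation p = 0.957). Gabrb2 had r = -0.68 on 1450319_at (permutation adjusted p = 0.000187; rho = -0.77, permutation p = 1e-05; -0.81 without them) and r = -0.48 on 1428204_at (permutation adjusted p = 0.0310; rho = -0.41, permutation p = 0.0208; -0.35 without them). Gabrb1 1443205_at had r = -0.60 (permutation adjusted p = 0.0305; rho = -0.46, permutation p = 0.00600; -0.33 without them). For Gabrb2 1429685_at (r = -0.54, permutation adjusted p = 0.0421; rho = -0.16, permutation p = 0.355) the relation rested on those 2 arrays, since r was 0.03 without them.

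**Figure D4:**
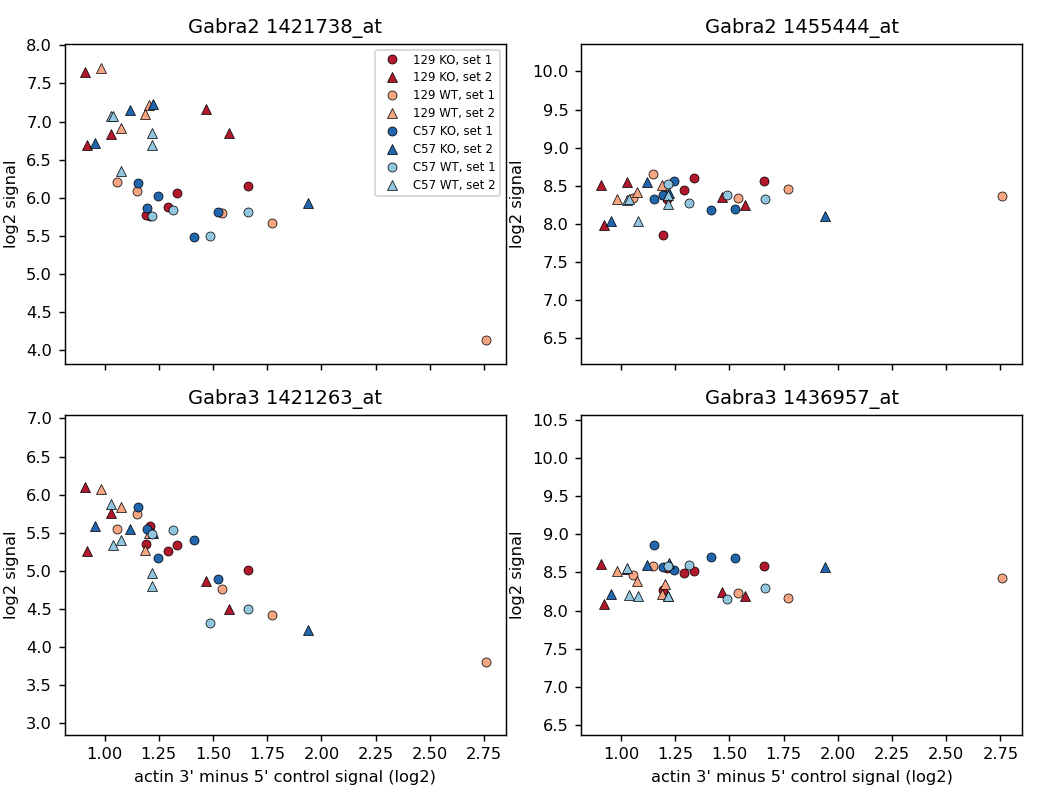
Log2 signals of 2 probe sets each of Gabra2 (top) and Gabra3 (bottom) against the actin difference (3′ minus 5′ signal of the control, log2), 1 point per array, circles for the first array set and triangles for the second, and the same vertical span in each panel. The left panels slope down (r = -0.69 and -0.87 with group means removed) and the right panels are flat (r = -0.02 and -0.04); the point at 2.76 is 129 WT array 73.

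For each subunit, the 2 genes with the most similar pattern were those with the highest r over the 37 arrays after group means were removed, given here as a description. They were Crim1 (0.81) and Gria3 (0.81) for Gabra2, Arl15 (0.75) and Ankrd13c (0.74) for Gabra3, and Mosmo (0.81) and Serbp1 (0.81) for Gabra4. They were Fabp5 (0.77) and Adgrb3 (0.76) for Gabra5, Pcdh11x (0.81) and Hacd1 (0.80) for Gabrb1, Ttc14 (0.91) and Zfp207 (0.89) for Gabrb2, and Prima1 (0.81) and Septin4 (0.80) for Gabrd. Gria3 encodes a subunit of the AMPA glutamate receptor. These values share the arrays, their RNA quality and the array sets.

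No other gene of GABA signalling measured here was called. Of 8 further subunit genes with 14 probe sets, 4 probe sets, of Gabrg1 and Gabrg3, reached the limit for testing, and 0 were called in any comparison, with 0 at an unadjusted p under 0.05 by limma. A list of 20 genes for receptor assembly, trafficking and anchoring and for GABA-B receptors, among them gephyrin (Gphn), neuroligin 2 (Nlgn2) and Gabbr1, had 18 genes and 36 probe sets tested. None was called by limma. At an unadjusted p under 0.05, limma counted 4 of the 36 between WT groups (3 higher and 1 lower in 129), 3 between KO groups (1 higher and 2 lower in 129), 0 between KO and WT in 129 and 1 in C57 (lower in KO). The backgrounds over all probe sets tested were 11.4%, 12.2%, 2.19% and 5.63% in that order. The medians of the list were 0.01, -0.03, 0.01 and 0.03 in that order.

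Markers of cell types and regions were read beside these results. At an unadjusted p under 0.05, higher and lower together, the backgrounds are again 11.4% (WT groups), 12.2% (KO groups), 2.19% (knockout in 129) and 5.63% (knockout in C57). Of cortical layer markers 7 of 8 genes reached the limit for testing, and of hippocampal markers 4 of 8, with 0 called in each comparison. At an unadjusted p under 0.05, limma counted 3 of 18 cortical layer probe sets lower in C57 KO than in C57 WT. It counted 1 lower in 129 KO than in 129 WT, 0 between WT groups and 2 lower in 129 between KO groups. Of 12 hippocampal probe sets, 1 was higher and 1 lower in 129 between KO groups. Of 18 thalamic probe sets, 1 was higher and 2 were lower in 129 KO than in 129 WT at that level. In C57, 1 was higher in KO than in WT. Between WT groups 1 was higher in 129 and between KO groups 2 were lower, with 0 called in each comparison. Choroid plexus markers had 6 probe sets tested, with 0 called and 0 at that level in each comparison. Astrocyte markers had 2 of 21 lower in 129 between WT groups and 3 between KO groups, with 0 called. Markers of GABA neurons, among them Gad1 and Gad2, had 10 probe sets tested, with 0 called and 0 at an unadjusted p under 0.05 by limma in each comparison. Their mean level per array ran from 8.87 to 9.18 in 129 KO, 8.99 to 9.16 in 129 WT, 8.89 to 9.15 in C57 KO and 8.93 to 9.19 in C57 WT. In C57, 12 of 14 striatal marker probe sets were lower in KO than in WT at an unadjusted p under 0.05, with 0 called, and their mean level ran from 7.51 to 8.56 in C57 KO and from 7.78 to 8.91 in C57 WT. Their part in the C57 differences of Gabra3, Gabra4 and Gabrb1 was not tested. Between WT groups, 7 of 17 oligodendrocyte probe sets were lower and 1 was higher in 129 at an unadjusted p under 0.05, with 1 called (Mbp 1419646_a_at, -0.48, limma adjusted p = 0.0161). Between KO groups, 3 were lower and 1 higher at that level, and 2 probe sets of Mbp, a myelin protein gene, were called in opposite directions (1419646_a_at at -0.50 and 1425263_a_at at 0.71, limma adjusted p = 0.00659 and 0.00184). The oligodendrocyte level ran from 8.90 to 9.40 in 129 WT and from 9.06 to 9.74 in C57 WT. Also between WT groups, 4 of 11 microglia probe sets were lower in 129 at an unadjusted p under 0.05, with 0 called. Of 8 vessel probe sets, 1 was lower and 0 were higher in 129 at that level. This 1, of Flt1, was called (-0.40, limma adjusted p = 0.0450), while the median of the 8 was 0.00. Between KO groups, the same count of 4 of 11 microglia probe sets was lower in 129, and 6 of 14 striatal probe sets were higher, with 0 called in both lists. Of 6 cerebellar probe sets 2 were called lower in 129 KO than in C57 KO, Zic1 (-0.47, limma adjusted p = 0.0278) and Car8 (-0.49, limma adjusted p = 0.0173). Of 19 neuronal probe sets 1, of Syt1, was called higher in 129 KO (0.36, limma adjusted p = 0.0455), and 1 was lower at an unadjusted p under 0.05. The neuronal median was 0.05 over the 19 and -0.08 over the brightest probe set of each gene. The part of these markers in the strain differences of Gabrb1, Gabra5 and Gabra3 was not tested.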

How the data were processed

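The arrays measured total RNA of dissected temporal lobe. The deposited values were log2 probe set signals that the authors had already normalized between arrays. Per the submitters' processing notes, GCRMA and MAS5 were used, with neither version nor role given, and the values have the form GCRMA writes. They were used as deposited, with no pseudocount. Of 45101 probe sets, 64 were controls, and those with several gene symbols (932) or none (9160) were left out. A probe set entered the tests if the mean of any group was 3.60 or higher, the 40th percentile of all probe set means. This kept 23321 probe sets of 13078 genes. Array medians lay between 4.30 and 4.36, and the number of arrays limits the precision.

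limma 3.58.1 in R 4.3.3 fitted 1 mean per group to all 37 arrays, with 2-sided tests and Benjamini-Hochberg adjustment over all probe sets tested. Called means an adjusted p under 0.05. Correlations used 100000 permutations (Python 3.11.15, NumPy 2.4.6, SciPy 1.17.1, pandas 2.3.3; plots matplotlib 3.10.9), and the smallest p they can give is 1e-05. The fit was tested on simulated data. The subunits, lists, tests and alternatives were chosen with earlier results of these data known. All probe sets of the 7 subunits are named; Wfs1 is named as the check of genotype, other lists are given by counts with called genes named where they stand beside a result, and the 2 most similar genes of each subunit are named, skipping clone names and predicted genes. Alternatives were other filters, quantile normalization, 1 value per gene, eBayes with trend and robust, only the groups compared, the array sets, the actin covariate and each array left out. Leaving out the 3 arrays least like their group, and the backgrounds of the correlations over all probe sets or gene pairs, were chosen after seeing the data. Gene names come from GEO's platform annotation, and chromosomes, gene order and promoter sequences from RefSeq tables of GRCm38.p6.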

Additional observations from a re-analysis of the deposited data

Results flagged for a closer look

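An array was marked where its distance to the nearest other array of its group passed Dixon's 95% limit. Chance marks about 1 in 20 groups, and 9 of 84 combinations of probe set and group were marked here. The arrays of 129 WT accounted for 5, of which 4 were low values on array 73, which has the highest actin difference. These were 6.33 on Gabra2 1443865_at, 8.82 on Gabrb1 1435095_at, 6.75 on Gabrb1 1443205_at and 9.14 on Gabrb2 1429685_at. The fifth was a high value of 2.45 on Gabra2 1449807_x_at on array 76, below the limit for testing. Array 10 of C57 KO was low on Gabrb2 1429685_at (9.00) and on Gabrb2 1428203_at (9.02). Array 17 of C57 KO was low on Gabra3 1436957_at (8.22), while the next array of that group had 8.54. Array 42 of C57 WT was high on Gabrd 1457763_at (2.86), a probe set below the limit for testing. What sets these arrays apart was not tested.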

How the results depend on the processing

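The call of Gabrb1 1443205_at between WT groups held under the alternatives except within the first array set, and it does not exist where each gene has 1 value, since the probe set is then averaged or dropped. Accordingly the number of called subunit probe sets between WT groups was 1, but 0 with the brightest probe set per gene, 0 with the mean of the probe sets of a gene and 0 in the first array set, and 1 to 2 with 1 array left out (the second being Gabra5, without C57 WT array 25, C57 WT array 42 or 129 WT array 72). The other comparisons kept 0 subunit calls under each alternative run. Counts over all tests moved more, but they do not all rest on the same number of tests. The main fit tested 23321 probe sets, which belong to 13078 genes. With the brightest probe set or the mean per gene, genes were tested in place of probe sets. A lower count under those settings therefore need not mean a lower share called. The filter at the 60th percentile also left fewer probe sets to test. Shares called were not compared between settings. KO minus WT in C57 gave 20, against 13 with the filter at the 60th percentile, 10 with the mean per gene, 7 with only the groups compared, 10 and 8 in the first and second array set, and 11 to 23 with 1 array left out. The difference of the knockout effects gave 6, against 2 with the brightest probe set, 3 with the mean, 3 and 1 in the sets, and 5 to 9 with 1 array left out. 129 minus C57 in WT gave 472, against 269, 272, 110 and 216 under the same 4 settings and 370 to 576 with 1 array left out. 129 minus C57 in KO gave 702, against 400, 399, 415 and 55, then 465 with only the groups compared, and 553 to 775 with 1 array left out. KO minus WT in 129 gave 1, and 1 to 2 with 1 array left out. The arrays whose omission moved a count by over 1.5 times were C57 KO array 3 (11), C57 WT array 25 (13) and C57 WT array 42 (12) for KO minus WT in C57, and 129 KO array 54 (2) for KO minus WT in 129. Of 85 subunit differences, the 8 with an unadjusted p under 0.05 kept their sign under every alternative, while 51 of the other 77 changed sign under at least 1, so no direction is read from those 77; the values of these 77 under each alternative were left out of the comparison of settings after this was seen. No paired analysis was possible because every array number is used once and no groups share one. Signal over background limits the 4 probe sets below the filter.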
